A study of Homo sapiens with 14 samples.

Results

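The comparison described here is the RNA response of UM1 cells to a short hairpin against PRMT5, measured by RNA-seq in 2 shPRMT5 and 2 shGFP libraries. UM1 is an established human tongue squamous cell carcinoma line. The shPRMT5 cells carry a hairpin directed at PRMT5 mRNA, and the shGFP cells carry a hairpin directed at GFP, a gene these cells do not have by nature. The labels give no dose, no time after transduction and no number of hairpin sequences. The 4 libraries belong to a series of 14 samples that asks how PRMT5 bears on gene control by the squamous factor ΔNp63α, and the other 10 samples are not described here. Values are TPM, transcript abundance corrected for gene length and scaled to a fixed total in each library. Of 16237 genes listed in the table, the 12635 with a mean of at least 1 TPM over the 4 libraries were tested.

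PRMT5 is the main source of symmetric dimethylarginine in proteins. It works in a complex with WDR77, the methylosome, which modifies Sm proteins before the SMN complex loads them onto spliceosomal small nuclear RNAs, and it also modifies histone tails and many RNA-binding proteins. Cells lacking it are known for weaker splicing of introns with poor splice sites, and the enzyme is often abundant in tumours.

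The targeted gene was lower in shPRMT5 cells: PRMT5 had 29.3 and 33.6 TPM in shPRMT5 cells, against 143 and 126 TPM in shGFP cells. The groups did not overlap, and the log2 fold was -2.06 ± 0.18 (± limma's standard error throughout; adjusted p 9.74e-09, Benjamini-Hochberg over all 12635 genes). Markers of squamous keratinocytes were abundant. All 18 markers of that cell type on the list used were present, and their summed level was 14465 and 14416 TPM in shPRMT5 cells, against 15154 and 13492 TPM in shGFP cells. Of 9 markers of simple or glandular epithelium 6 were listed, at 1624 and 1506 TPM in sum in shPRMT5 cells, against 2076 and 1698 TPM in shGFP cells, with 1 called higher and 1 lower. Of 9 fibroblast markers 4 were listed, at 9.35 and 11.8 TPM in sum in shPRMT5 cells, against 9.003 and 6.78 TPM in shGFP cells. Of 8 leukocyte markers 2 were listed, and PTPRC and CD3E were not. Of 7 muscle and nerve markers 2 were listed, at 23.1 and 15.02 TPM in sum in shPRMT5 cells, against 8.89 and 10.6 TPM in shGFP cells, and 1 was called higher. The part of other cell types in the results was not tested. The titles call the replicates biological but name no separate cultures. The p-values therefore reflect only how far these 4 libraries spread, and that spread may be technical.

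More genes rose than fell. At an adjusted p under 0.05, 1904 genes (15.1%) were higher and 440 (3.48%) lower in shPRMT5 cells. The median log2 fold over all tested genes was 0.25, and 5% of genes lay below -0.53 and 5% above 0.91. Most called changes were modest: 408 of the 1904 and 129 of the 440 reached a log2 fold of 1 in size. TPM values share a fixed total, so a shift of all genes cannot be told apart from a fall of the most abundant ones. The 100 most abundant genes held 34.1% and 32.6% of all TPM in shPRMT5 libraries, against 36.3% and 37.4% in shGFP libraries. Dividing each library by its median ratio to the mean profile (rescaling below) brought the median log2 fold to 0.01. The rescaled fit called 480 genes higher (3.80%) and 886 lower (7.01%). Called on both scalings were 480 genes higher (3.80%) and 439 lower (3.47%), and none was called in opposite directions. Of the 440 genes called lower on the deposited scale, 439 were called lower after rescaling too.

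One library weighs on the calls. With shPRMT5 replicate 2 removed the test called 170 genes higher and 154 lower, and with shPRMT5 replicate 1 removed 936 higher and 199 lower. Leaving out shGFP replicate 1 gave 1996 higher and 511 lower, and leaving out shGFP replicate 2 gave 2385 higher and 716 lower. The log2 level of a gene in shPRMT5 replicate 2 lay above that in replicate 1 by a median of 0.11. In all 4 of these fits, 97 genes called higher and 68 called lower held their call.

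The changes were graded by the length of the gene. When the genes with a known genomic span (95.3% of those tested, RefSeq positions on GRCh38.p14) were ranked into 5 equal bins, the median log2 fold was 0.02 in the bin of the shortest genes, with a median span of 3.08 kb, and then 0.14, 0.26, 0.36 and 0.44. The last bin holds the longest genes, with a median span of 129.6 kb. Of the shortest genes 9.71% were called higher and 8.17% lower, and of the longest 21.2% higher and 1.20% lower. After rescaling the medians ran between -0.22 and 0.21 in the same order. Both shPRMT5 libraries showed the gradient against the shGFP mean, with medians of 0.33 for replicate 1 and 0.55 for replicate 2 among the longest genes, against 0.01 and 0.02 among the shortest. The same gradient stood between replicates of one group: shPRMT5 replicate 2 exceeded replicate 1 by a median of 0.01 among the shortest and 0.23 among the longest genes, and the difference between shGFP replicates 2 and 1 was -0.06 and 0.05. The part that RNA integrity or library making has in this gradient was not tested. When each bin was centred on its own median, a step added after the data were seen, 267 genes were called higher and 562 lower.

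**Figure D1:**
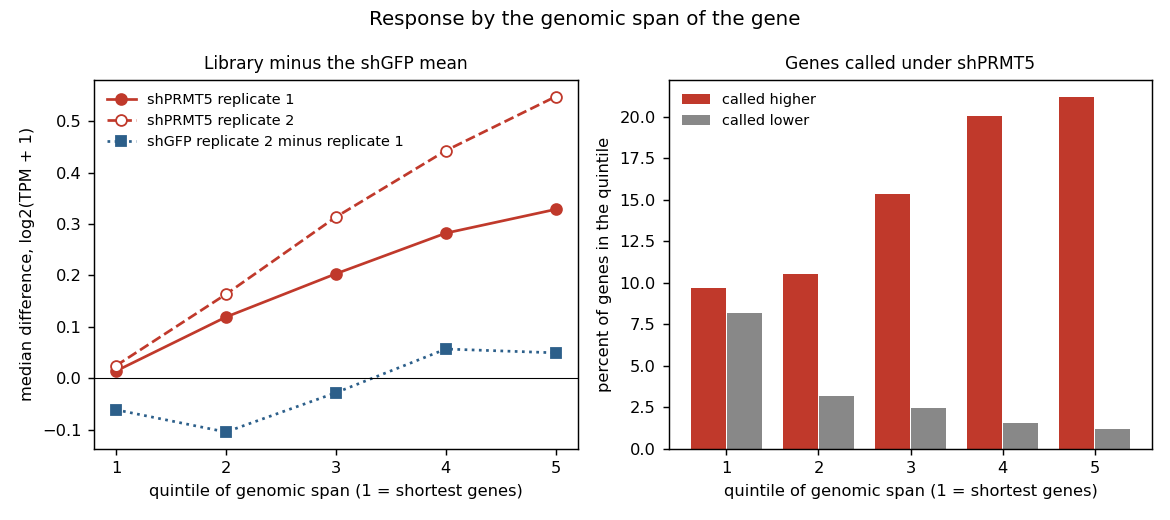
Left, median difference of log2(TPM + 1) from the mean of the shGFP libraries for each shPRMT5 library, and between the shGFP libraries, in 5 bins of genomic span. Right, percent of genes in each bin called higher (red) or lower (grey) under shPRMT5. Both shPRMT5 lines climb with span, to 0.33 and 0.55 in the longest genes, and the share called lower drops to 1.20%.

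The called genes with the largest change of mean TPM were abundant ones, 10 in each direction. ACTG1, cytoplasmic gamma actin, had 4587 and 4449.9 TPM in shPRMT5 cells, against 3493 and 2889.7 TPM in shGFP cells. KRT5, the keratin of basal squamous cells, had 2792 and 2886 TPM in shPRMT5 cells, against 1657 and 1386 TPM in shGFP cells, a log2 fold of 0.90 ± 0.12 that was also called after rescaling. ACTG1 was called on the deposited scale only. Both genes were higher in each shPRMT5 library than in either shGFP library. HSP90AB1, the constitutive cytosolic HSP90, had 2361 and 2737 TPM in shPRMT5 cells, against 1545 and 1687 TPM in shGFP cells, and the RNA-binding protein YBX1 had 2258 and 2405 TPM in shPRMT5 cells, against 1259 and 1652 TPM in shGFP cells. PTMA, a small acidic nuclear protein, had 1794 and 1978 TPM in shPRMT5 cells, against 1345 and 1441 TPM in shGFP cells, and CALR, a calcium-binding chaperone of the endoplasmic reticulum, had 1694 and 1703 TPM in shPRMT5 cells, against 1326 and 1194 TPM in shGFP cells. These 4 rose by log2 folds of 0.65, 0.69, 0.44 and 0.43 on the deposited scale, and none of them was called after rescaling. LY6D, a surface protein of squamous cells, had 1590.3 and 1404 TPM in shPRMT5 cells, against 843 and 827 TPM in shGFP cells and rose on both scalings. The lipid enzymes SCD, which desaturates fatty acids, and FASN, which builds them, had log2 folds of 1.21 ± 0.14 and 0.60 ± 0.14, and SCD alone of the pair was called on both scalings. S100A14 had 2599 and 2657 TPM in shPRMT5 cells, against 1827 and 2119 TPM in shGFP cells and was called on the deposited scale only.

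The largest loss in TPM was that of RPS2, a protein of the small ribosomal subunit, with 17309.9 and 14354 TPM in shPRMT5 cells, against 19455 and 19437 TPM in shGFP cells. S100A2, a calcium-binding protein of basal keratinocytes, had 1254 and 1294 TPM in shPRMT5 cells, against 4318 and 4872 TPM in shGFP cells. RPL35 had 5847 and 5540.5 TPM in shPRMT5 cells, against 8345 and 8935 TPM in shGFP cells and RPL27 had 1859.9 and 1795 TPM in shPRMT5 cells, against 2519.9 and 3004 TPM in shGFP cells, both proteins of the large subunit. All these genes were lower in each shPRMT5 library than in either shGFP library, and S100A2 had the largest log2 fold among them, -1.85 ± 0.12. RPL7A and RPL13 fell by smaller log2 folds, -0.35 ± 0.11 and -0.32 ± 0.11. SLC7A5, the large neutral amino acid transporter, had 3083 and 3511 TPM in shPRMT5 cells, against 5541 and 4067 TPM in shGFP cells. PRDX5, a peroxide-reducing enzyme, had 3377 and 2963 TPM in shPRMT5 cells, against 4352 and 4665 TPM in shGFP cells, and the mitochondrial protein CHCHD2 had 4230.5 and 3807 TPM in shPRMT5 cells, against 5183 and 5430.4 TPM in shGFP cells. RPS2P5, a pseudogene copy of RPS2, had 8079 and 8489 TPM in shPRMT5 cells, against 11609 and 11396 TPM in shGFP cells, and reads of the gene and its copies may have been split between them. All 10 were called lower on both scalings.

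**Figure D2:**
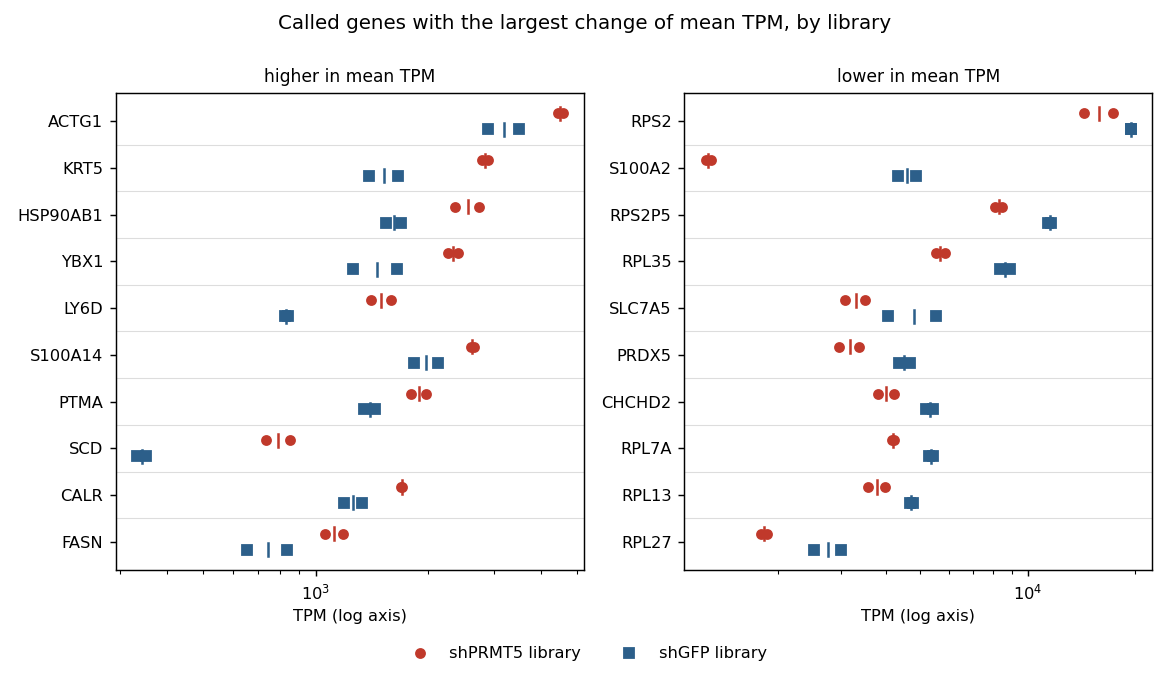
TPM (log axis) of the 10 genes called higher and the 10 called lower with the largest change of mean TPM. Circles are shPRMT5 libraries, squares shGFP libraries and short bars group means, and the groups are apart for all 20 genes.

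RNA-binding regulators of splicing had the largest share of genes called higher among the 80 lists, 69.0%. Of 42 SR and hnRNP proteins, which choose splice sites and package nascent RNA, 29 were called higher and none lower, beside 15.1% higher over all genes, and the groups were apart in the upward direction for 37 (49.0% over all genes). Their median log2 fold was 0.57, against 0.25 over all genes, and it was 0.30 after rescaling. Their summed level was 5394 and 6114 TPM in shPRMT5 cells, against 4041 and 4262 TPM in shGFP cells. On both scalings 5 were called. HNRNPU, a nuclear scaffold RNA-binding protein, had 32.5 and 38.9 TPM in shPRMT5 cells, against 17.02 and 15.9 TPM in shGFP cells, a log2 fold of 1.07 ± 0.21. HNRNPM, a splicing regulator, had 217 and 239 TPM in shPRMT5 cells, against 116 and 107 TPM in shGFP cells, with a log2 fold of 1.02 ± 0.16 and a call whichever library was left out. SRSF6, an SR protein, had 43.2 and 47.4 TPM in shPRMT5 cells, against 22.7 and 21.7 TPM in shGFP cells. In all 3 genes each shPRMT5 library was above each shGFP library. With a library left out the list had between 1 and 31 members called higher, fewest without shPRMT5 replicate 2, and leaving out shPRMT5 replicate 1 gave 7. The list's genes are short, with a median span of 16.0 kb, and their median stood 0.38 above that of their span bins.

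Sm and LSm proteins and the SMN complex, a list not limited to proteins PRMT5 modifies, were called higher at close to the share over all genes. Of 25 Sm, LSm and SMN complex genes 4 were higher (16.0%) and none lower, 1 on both scalings, with a median log2 fold of 0.03, or -0.24 after rescaling. SNRPD3, an Sm core protein, had 28.4 and 34.3 TPM in shPRMT5 cells, against 16.2 and 16.2 TPM in shGFP cells, and was the member called on both scalings. GEMIN5, the SMN complex protein that recognises small nuclear RNA, had 21.98 and 26.98 TPM in shPRMT5 cells, against 11.9 and 14.97 TPM in shGFP cells, and the helicase DDX20 of that complex had 7.002 and 7.46 TPM in shPRMT5 cells, against 2.69 and 4.98 TPM in shGFP cells. Both rose on the deposited scale only. With a library left out, between 0 and 6 of the list were called higher, none of them without shPRMT5 replicate 2.

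Of 49 core spliceosome genes 10 rose (20.4%) and 2 fell (4.08%), beside 15.1% and 3.48% over all genes. None of the 10 was called on both scalings, and both of the 2 were. SNRNP200, the helicase that unwinds the spliceosomal RNAs, had 89.6 and 99.6 TPM in shPRMT5 cells, against 60.5 and 49.03 TPM in shGFP cells, and SF3B1, the branch site protein, had 28.9 and 33.1 TPM in shPRMT5 cells, against 14.7 and 22.2 TPM in shGFP cells. The small SF3B subunits went the other way: SF3B5 had 1399 and 1346 TPM in shPRMT5 cells, against 1772 and 1981 TPM in shGFP cells, and PHF5A had 224 and 211 TPM in shPRMT5 cells, against 287 and 298 TPM in shGFP cells. The subunits of one particle therefore did not share a direction, and without either shPRMT5 library none of the list was called.

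None of the other methylosome members was called. WDR77, PRMT5's obligate partner, had 94.6 and 88.7 TPM in shPRMT5 cells, against 76.3 and 66.9 TPM in shGFP cells, and RIOK1, an adaptor that recruits substrates, had 26.8 and 36.2 TPM in shPRMT5 cells, against 18.6 and 23.4 TPM in shGFP cells. The groups were apart for both. CLNS1A, the adaptor for Sm proteins, had 111 and 121 TPM in shPRMT5 cells, against 79.8 and 117 TPM in shGFP cells, with overlapping groups, and the histone adaptor COPRS had 236 and 250.3 TPM in shPRMT5 cells, against 258 and 253 TPM in shGFP cells. Among the 7 other arginine methyltransferases tested none was called, at log2 folds between -0.08 and 0.45. PRMT1, which places most asymmetric marks, had 661 and 619 TPM in shPRMT5 cells, against 672 and 678 TPM in shGFP cells. PRMT7, CARM1 and PRMT9 had log2 folds of 0.06 ± 0.21, 0.17 ± 0.17 and 0.34 ± 0.31, and PRMT3 of 0.36 ± 0.23. The sign of these 4 and of CLNS1A turned under at least 1 other setting.

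Later steps of mRNA handling had a few called members each, between 11.8% and 21.1% of a list called higher, beside 15.1% over all genes. Of 20 cleavage and polyadenylation genes 4 rose, 2 of them on both scalings. CPSF6, a factor of poly(A) site choice, had 34.9 and 45.5 TPM in shPRMT5 cells, against 17.9 and 19.6 TPM in shGFP cells, and CSTF1, a subunit of the cleavage stimulation factor, had 42.7 and 50.4 TPM in shPRMT5 cells, against 18.4 and 25.9 TPM in shGFP cells. Of 19 exosome and decapping genes 4 rose, 1 of them on both scalings: DCP1A, a decapping cofactor, with 7.09 and 7.80 TPM in shPRMT5 cells, against 3.27 and 3.12 TPM in shGFP cells. Of 17 nonsense-mediated decay and exon junction genes 2 rose, neither on both scalings. None of these 3 lists had a member called lower, and none had a member called higher without shPRMT5 replicate 2.

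Nuclear pore genes had many higher calls for the size of their list. Of 29 nucleoporins 13 were higher (44.8%, against 15.1% over all genes) and none lower, 6 on both scalings, with a median log2 fold of 0.59 (0.32 after rescaling). NUP153, of the nuclear basket, had 25.6 and 34.3 TPM in shPRMT5 cells, against 11.5 and 11.3 TPM in shGFP cells, a log2 fold of 1.30 ± 0.22. NUP155, of the inner ring, had 22.7 and 31.02 TPM in shPRMT5 cells, against 10.6 and 13.3 TPM in shGFP cells, and NUP133, of the outer ring, had 27.5 and 32.2 TPM in shPRMT5 cells, against 12.5 and 14.8 TPM in shGFP cells. In all 3 the shPRMT5 libraries were above the shGFP libraries, and the highest value was that of shPRMT5 replicate 2. Their summed level was 1153 and 1283 TPM in shPRMT5 cells, against 868 and 866 TPM in shGFP cells. Nucleoporin genes are long, with a median span of 58.8 kb, and their median stood 0.22 above that of their span bins. Once shPRMT5 replicate 2 was left out, none was called, and without shPRMT5 replicate 1 there were 7.

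**Figure D3:**
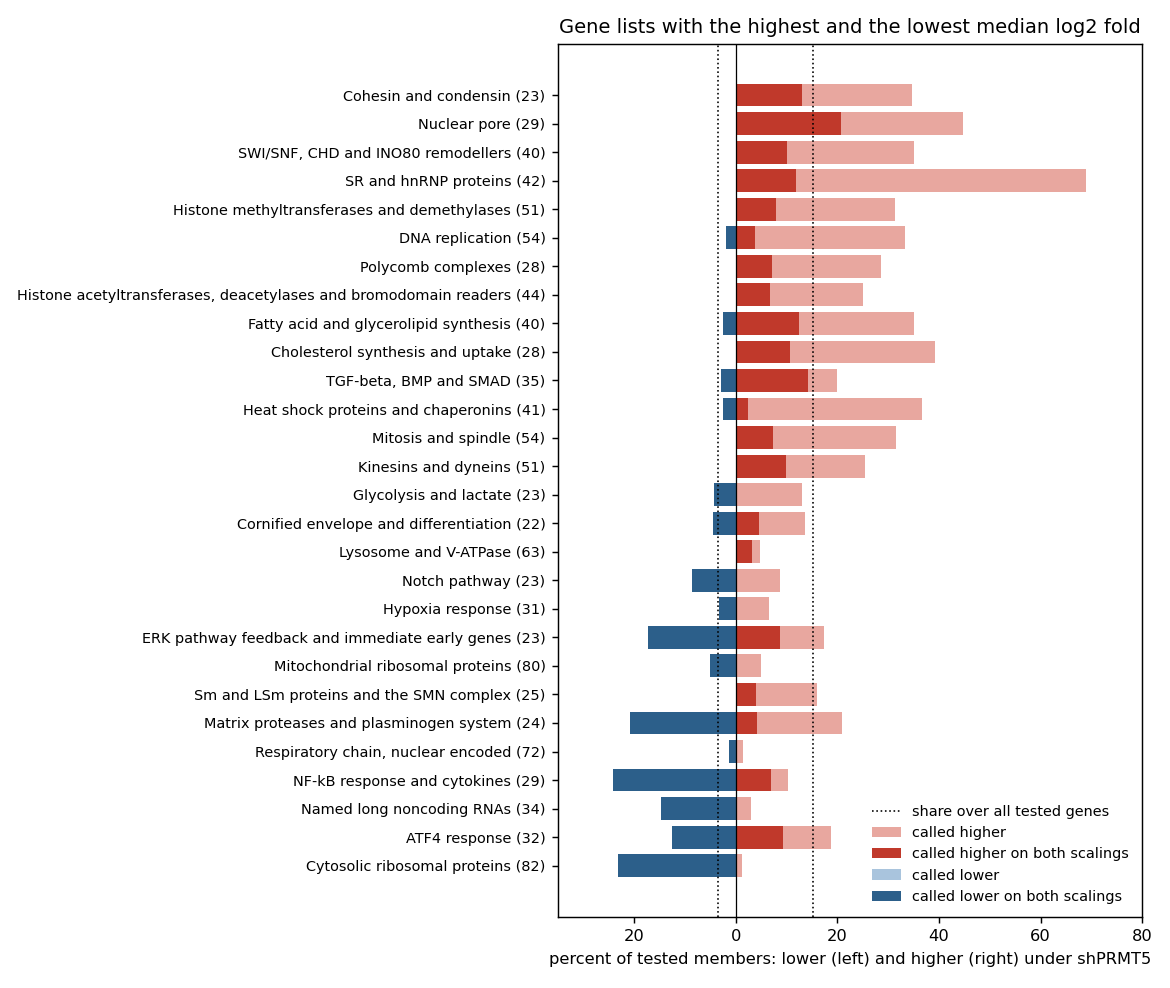
Percent of tested members called higher (right) and lower (left) under shPRMT5 for the 14 lists with the highest and the 14 with the lowest median log2 fold among lists of at least 20 tested genes, with the number tested in parentheses. Dark parts were called on both scalings and dotted lines mark the share over all tested genes (15.1% higher, 3.48% lower).

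Cytosolic ribosomal protein genes were called mostly in the downward direction. Of 82 cytosolic ribosomal protein genes, 19 were lower and 1 higher, beside 3.48% lower over all genes, and all 19 were lower on both scalings, 7 with quantile normalization. Their median log2 fold was -0.22 and -0.49 after rescaling. They held 154048 and 146265 TPM in shPRMT5 cells, against 167301 and 187300 TPM in shGFP cells. RPS29 had 96.99 and 119 TPM in shPRMT5 cells, against 179 and 169 TPM in shGFP cells, and RPL27A had 1219 and 1132 TPM in shPRMT5 cells, against 1721 and 1932 TPM in shGFP cells. RPL39L, the copy of RPL39 best known from testis, had 68.8 and 59.6 TPM in shPRMT5 cells, against 96.7 and 109 TPM in shGFP cells. RPL7L1, a paralog that serves in ribosome assembly, was the member that rose, with 65.1 and 75.5 TPM in shPRMT5 cells, against 46.3 and 47.3 TPM in shGFP cells, and it was called on the deposited scale only. Ribosomal protein genes are short, with a median span of 5.05 kb, and their median stood 0.26 below that of their span bins. Fewer members were called lower without either shPRMT5 library, and more without either shGFP library. Without shGFP replicate 2 more members were called higher as well. The shGFP libraries also differed from each other in the summed level.

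Genes that build the ribosome were called higher at close to the share over all genes, 15.1%. Of 91 ribosome biogenesis genes 18 were higher (19.8%) and none lower, 4 of them on both scalings, at a median log2 fold of 0.37 (0.12 after rescaling). RRP1B, a nucleolar assembly factor, had 36.1 and 45.3 TPM in shPRMT5 cells, against 19.2 and 17.7 TPM in shGFP cells, and NVL, an ATPase of large-subunit assembly, had 17.9 and 22.3 TPM in shPRMT5 cells, against 6.98 and 11.6 TPM in shGFP cells. UTP20, a scaffold of the small-subunit precursor, had 3.48 and 5.07 TPM in shPRMT5 cells, against 1.44 and 1.78 TPM in shGFP cells. Of 32 RNA polymerase I and III genes 6 rose (18.8%), 1 on both scalings, and POLR3B, the second-largest subunit of polymerase III, had 11.04 and 14.8 TPM in shPRMT5 cells, against 3.90 and 7.03 TPM in shGFP cells. Neither list had a call without shPRMT5 replicate 2.

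Of 50 initiation and elongation factors 13 were higher (26%) and 2 lower (4%), beside 15.1% and 3.48% over all genes. On both scalings 5 were higher and 2 lower. EIF3A, a subunit of the factor that holds the ribosome to mRNA, had 38.2 and 57.5 TPM in shPRMT5 cells, against 21.3 and 27.2 TPM in shGFP cells, and EIF1AX, a scanning factor, had 67.99 and 79.7 TPM in shPRMT5 cells, against 33.1 and 44.1 TPM in shGFP cells. The repressors of cap-dependent initiation moved apart: EIF4EBP2 had 32.9 and 39.5 TPM in shPRMT5 cells, against 18.6 and 16.5 TPM in shGFP cells, and EIF4EBP1, by far the more abundant, had 1006 and 998 TPM in shPRMT5 cells, against 1433 and 1389.5 TPM in shGFP cells. The log2 folds were 1.00 ± 0.21 and -0.49 ± 0.13, each called on both scalings. EEF1D, an exchange factor of elongation, fell by the call but had 1.34 and 2.30 TPM in shPRMT5 cells, against 8.60 and 2.43 TPM in shGFP cells, so that 1 shGFP library sets its difference. With shPRMT5 replicate 2 left out, 1 factor was called higher.

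Mitochondrial lists differed in their calls, with between 1.39% and 36% of members called higher. Over all genes 15.1% were higher and 3.48% lower. Of 80 mitochondrial ribosomal proteins 4 rose (5%), none on both scalings, and 4 fell (5%), all on both. MRPL17 had 324 and 310.3 TPM in shPRMT5 cells, against 453 and 516 TPM in shGFP cells and MRPL41 had 1991 and 1726 TPM in shPRMT5 cells, against 2532 and 2446 TPM in shGFP cells, while MRPS35 had 124 and 122 TPM in shPRMT5 cells, against 68.5 and 75.8 TPM in shGFP cells. Of 72 nuclear genes of the respiratory chain 1 was higher and 1 lower, at a median log2 fold of 0.02, and ATP5I, a small ATP synthase subunit, had 33.5 and 49.8 TPM in shPRMT5 cells, against 60.8 and 71.3 TPM in shGFP cells. Import and inner membrane genes had 9 of 36 higher (25%) and 1 lower (2.78%), 2 and 1 on both scalings. HSPA9, the matrix HSP70, had 123 and 153 TPM in shPRMT5 cells, against 56.8 and 80.2 TPM in shGFP cells, and IMMT, the core of the cristae junction complex, had 98.6 and 107 TPM in shPRMT5 cells, against 50.5 and 60.7 TPM in shGFP cells. TIMM17B, a channel subunit, had 288 and 271 TPM in shPRMT5 cells, against 388 and 399 TPM in shGFP cells. On a list of 25 tricarboxylic acid cycle, pyruvate dehydrogenase and related genes 9 were higher (36%) and none lower. The one called on both scalings was IDH1, the cytosolic isocitrate dehydrogenase, which is not an enzyme of the mitochondrial cycle. It had 80.4 and 86.01 TPM in shPRMT5 cells, against 33.03 and 53.02 TPM in shGFP cells, and is also counted among the NADPH genes below. With shPRMT5 replicate 2 omitted, no gene of these 4 lists was called higher, and 1 ribosomal protein was lower.

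Protein folding genes were called mostly in the upward direction, as were all genes (15.1% higher and 3.48% lower). Of 41 heat shock proteins and chaperonins 15 were higher (36.6%) and 1 lower, 1 and 1 on both scalings, at a median log2 fold of 0.48 (0.21 after rescaling). HSPH1, an exchange factor for HSP70, had 26.7 and 38.3 TPM in shPRMT5 cells, against 10.4 and 13.7 TPM in shGFP cells, a log2 fold of 1.35 ± 0.23. CDC37, which brings kinases to HSP90, had 253 and 257 TPM in shPRMT5 cells, against 474 and 417 TPM in shGFP cells, and it fell whichever library was left out. HSP90 itself and its kinase adaptor therefore went opposite ways on the deposited scale. Of 33 unfolded protein response genes 10 rose (30.3%), and CANX, a lectin chaperone of the endoplasmic reticulum, had 64.7 and 82.2 TPM in shPRMT5 cells, against 28.3 and 32.9 TPM in shGFP cells and was the member called on both scalings. Of 45 proteasome genes 5 rose (11.1%) and 1 fell. PSMD12, of the regulatory particle, had 57.1 and 65.3 TPM in shPRMT5 cells, against 27.04 and 35.6 TPM in shGFP cells, and PSMB6, of the catalytic core, had 792 and 799 TPM in shPRMT5 cells, against 1087 and 1179 TPM in shGFP cells, each called on both scalings. Higher calls were 0 in all 3 lists without shPRMT5 replicate 2.

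Targets of ATF4, the factor of the amino acid stress response, were mixed. Of 32 tested 6 were higher (18.8%) and 4 lower (12.5%), beside 15.1% and 3.48% over all genes. On both scalings 3 were higher and 4 lower, and the list's median log2 fold was -0.07, against 0.25 over all genes. CHAC1, which degrades glutathione, had 10.3 and 9.92 TPM in shPRMT5 cells, against 24.5 and 21.2 TPM in shGFP cells, and GDF15, a stress cytokine, had 18.2 and 13.6 TPM in shPRMT5 cells, against 36.6 and 32.1 TPM in shGFP cells. CTH, which makes cysteine, had 39.6 and 44.3 TPM in shPRMT5 cells, against 18.6 and 20.7 TPM in shGFP cells, and SLC38A1, a glutamine carrier, had 24.6 and 32.8 TPM in shPRMT5 cells, against 11.5 and 14.7 TPM in shGFP cells. ATF5, a relative of ATF4, had 31.4 and 36.3 TPM in shPRMT5 cells, against 20.1 and 14.9 TPM in shGFP cells. The groups were apart for all 5. The count of lower genes was 1 without shPRMT5 replicate 2, 2 without shPRMT5 replicate 1 and 8 without shGFP replicate 2, and that of higher genes was 0 without shPRMT5 replicate 2.

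Lists of the entry into S phase held genes called higher, and most of their members were not called. Of 35 G1 cyclins, kinases, E2F factors and inhibitors 10 were higher (28.6%, against 15.1% over all genes) and none lower. On both scalings 5 were higher (3.80% over all genes), and the list's median log2 fold was 0.39 (0.14 after rescaling). E2F3, an activator of S phase genes, had 14.6 and 21.7 TPM in shPRMT5 cells, against 5.34 and 5.39 TPM in shGFP cells, a log2 fold of 1.56 ± 0.25 that was called whichever library was left out. CCNE2, cyclin E2, had 3.82 and 5.48 TPM in shPRMT5 cells, against 1.0005 and 1.41 TPM in shGFP cells, and E2F7, a repressor of the same targets, had 9.10 and 11.8 TPM in shPRMT5 cells, against 4.16 and 3.57 TPM in shGFP cells. In these genes shPRMT5 replicate 2 had the highest value and the shGFP libraries lay close together. Of 54 DNA replication genes 18 were higher (33.3%) and 1 lower, 2 and 1 on both scalings, at a median of 0.51 (0.23 after rescaling). POLA1, the catalytic subunit of polymerase alpha, had 4.45 and 6.94 TPM in shPRMT5 cells, against 1.70 and 2.29 TPM in shGFP cells. TICRR, which helps to activate the helicase at origins, had 10.3 and 14.9 TPM in shPRMT5 cells, against 6.52 and 5.79 TPM in shGFP cells, and its partner TOPBP1 had 11.8 and 13.8 TPM in shPRMT5 cells, against 4.13 and 7.92 TPM in shGFP cells. POLE4, a small histone-fold subunit of polymerase epsilon, was the one that fell, with 256 and 235 TPM in shPRMT5 cells, against 353 and 346 TPM in shGFP cells. RRM2, the regulated subunit of ribonucleotide reductase, had 71.999 and 86.4 TPM in shPRMT5 cells, against 35.2 and 36.5 TPM in shGFP cells, one of 9 of 32 nucleotide synthesis genes that rose (28.1%), and RRM2 alone was called on both scalings. Without shPRMT5 replicate 2, G1 genes had 2 calls and the other 2 lists none.

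Replication genes are known targets of E2F factors, and their promoters were searched for E2F sites. RefSeq promoters (250 bases before to 50 after the start, GRCh38.p14) were matched for 9263 of the tested genes, 73.3%. An E2F site, TTTCCCGC or TTTGGCGC on either strand, was found in 3.94% of all of them and in 18 of 46 promoters of replication genes (39.1%). It stood in 4.85% of promoters of genes called higher and in 4.17% of those called lower. Among genes higher on both scalings the share was 5.48%. The difference between these shares was not tested. Called higher were 79 members of the cell-cycle, repair and chromatin lists searched. Of these 66 had a matched promoter, and 10 held a site before the start. Among the 10, 3 rose on both scalings. They are shown 5′ to 3′ on the strand of the gene with the site in capitals, each ending before the start of transcription.
E2F3 (chr6:20401796-20401863): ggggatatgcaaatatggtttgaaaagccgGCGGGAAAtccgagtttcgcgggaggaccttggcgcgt
POLA1 (chrX:24693751-24693818): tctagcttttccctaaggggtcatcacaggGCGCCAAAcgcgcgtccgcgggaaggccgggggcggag
UHRF1 (chr19:4909457-4909500): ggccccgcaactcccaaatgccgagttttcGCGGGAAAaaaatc
The E2F3 stretch is on the plus strand of chr6, the POLA1 stretch on that of chrX and the UHRF1 stretch on that of chr19. UHRF1, which carries DNA methylation through replication, had 135 and 163 TPM in shPRMT5 cells, against 85.1 and 62.3 TPM in shGFP cells, and was called on both scalings like the other two. No motif is a measured binding site.

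Mitotic and chromosome structure lists had part of their genes called higher, beside 15.1% over all genes. Of 54 mitosis and spindle genes 17 were higher (31.5%) and none lower, 4 on both scalings. KIF4A, a chromosome-bound kinesin, had 39.97 and 47.05 TPM in shPRMT5 cells, against 18.6 and 24.6 TPM in shGFP cells, and KIF23, a kinesin of cytokinesis, had 15.6 and 24.7 TPM in shPRMT5 cells, against 7.13 and 11.9 TPM in shGFP cells. A CCAAT box stood in 74.5% of the 47 mitosis promoters, against 36.9% of all. Among promoters of all genes called higher the share was 38.9%, and among those called lower 37.9%. Of 23 cohesin and condensin genes 8 were higher (34.8%) and none lower, 3 on both scalings, and the list's median log2 fold of 0.64 was 0.43 after rescaling. NCAPD3 and NCAPG2, subunits of condensin II, had 29.8 and 36.5 TPM in shPRMT5 cells, against 14.8 and 15.7 TPM in shGFP cells, and 38.1 and 44.8 TPM in shPRMT5 cells, against 19.2 and 21.04 TPM in shGFP cells. SMC1A, an arm of the cohesin ring, had 36.3 and 51.8 TPM in shPRMT5 cells, against 21.9 and 20.9 TPM in shGFP cells. These genes are long, with a median span of 71.4 kb, and their median stood 0.21 above that of their span bins. Of 37 kinetochore genes 7 rose (18.9%), 1 on both scalings, and ZW10, which holds dynein at kinetochores, had 26.2 and 27.2 TPM in shPRMT5 cells, against 8.51 and 17.2 TPM in shGFP cells. Once shPRMT5 replicate 2 was left out, none of the 3 lists had a call.

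**Figure D4:**
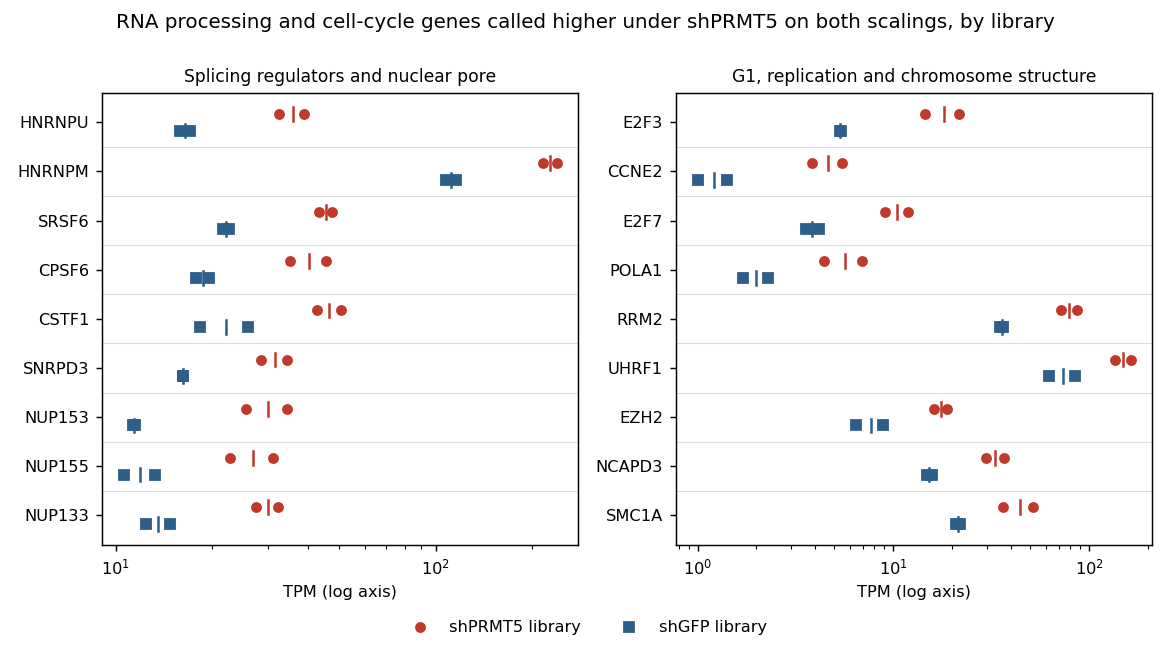
TPM (log axis) of genes of RNA processing and the nuclear pore (left) and of G1, replication and chromosome structure (right), all called higher on both scalings. Circles are shPRMT5 libraries, squares shGFP libraries and short bars group means, and the groups are apart for all 18 genes.

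Repair genes were called on both scalings in 1 case each way. The lists below had 21.4% and 22.9% of members called higher, and none and 2.86% lower. Over all genes 15.1% were higher and 3.48% lower. Of 42 genes of homologous recombination and the Fanconi anaemia pathway 9 rose, none on both scalings, with FANCD2, the ubiquitinated hub of that pathway, at 4.90 and 7.07 TPM in shPRMT5 cells, against 2.11 and 2.83 TPM in shGFP cells. Of 35 mismatch and excision repair genes 8 rose and 1 fell. TDG, a glycosylase that removes mispaired thymine, had 42.6 and 52.1 TPM in shPRMT5 cells, against 17.1 and 24.7 TPM in shGFP cells, and the glycosylase NEIL2 had 15.8 and 19.9 TPM in shPRMT5 cells, against 33.7 and 25.3 TPM in shGFP cells, each called on both scalings. No gene of either list was called higher without shPRMT5 replicate 2.

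Lists of chromatin regulators differed in how many members were called higher, beside 15.1% over all genes. Of 31 Mediator genes 3 were higher (9.68%) and none lower, 2 on both scalings. Of 40 SWI/SNF, CHD and INO80 remodellers 14 were higher and none lower, 4 on both scalings, at a median log2 fold of 0.58 (0.35 after rescaling). BAZ1B, a remodeller subunit, had 28.6 and 38.4 TPM in shPRMT5 cells, against 13.3 and 15.2 TPM in shGFP cells, and ARID1A, the defining subunit of the BAF complex, had 9.75 and 12.5 TPM in shPRMT5 cells, against 5.91 and 4.50 TPM in shGFP cells. CHD8, a chromodomain helicase, had 7.73 and 12.1 TPM in shPRMT5 cells, against 3.99 and 4.60 TPM in shGFP cells. Of 51 histone methyltransferases, demethylases and DNA methylation genes 16 were higher, 4 on both scalings. TET3, a dioxygenase of methylcytosine, had 3.40 and 5.81 TPM in shPRMT5 cells, against 1.71 and 0.946 TPM in shGFP cells. Of 44 acetyltransferases, deacetylases and bromodomain readers 11 were higher, 3 on both scalings, and RCOR1, the scaffold of the CoREST complex, had 22.4 and 32.04 TPM in shPRMT5 cells, against 11.6 and 9.82 TPM in shGFP cells. Of 28 Polycomb genes 8 were higher, 2 on both scalings. EZH2, the methyltransferase of Polycomb repressive complex 2, had 16.1 and 18.9 TPM in shPRMT5 cells, against 6.42 and 8.89 TPM in shGFP cells, and PCGF6 had 9.85 and 14.3 TPM in shPRMT5 cells, against 4.91 and 5.26 TPM in shGFP cells. None of the 4 lists other than Mediator had a gene called lower on the deposited scale. Their medians stood 0.14 to 0.18 above those of their span bins, and without shPRMT5 replicate 2 none had a call.

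Histone genes themselves were split. Of 34 tested 10 were higher (29.4%) and 3 lower (8.82%), beside 15.1% and 3.48% over all genes. On both scalings 3 were higher and 3 lower. The linker histones H1F0 and H1FX, made outside S phase, had 78.6 and 91.1 TPM in shPRMT5 cells, against 138 and 149 TPM in shGFP cells, and 735 and 682 TPM in shPRMT5 cells, against 1253 and 943 TPM in shGFP cells. HIST3H2A had 31.1 and 24.5 TPM in shPRMT5 cells, against 46.3 and 56.8 TPM in shGFP cells. Replication-dependent histones were at low levels and included HIST1H2BL, with 3.995 and 6.29 TPM in shPRMT5 cells, against 2.08 and 1.29 TPM in shGFP cells. Histone genes resemble one another closely and their main mRNAs lack a poly(A) tail, so these values are uncertain. H3F3AP6, a pseudogene of a replacement histone, had 19.7 and 19.95 TPM in shPRMT5 cells, against 8.25 and 9.45 TPM in shGFP cells, and its reads may come from the parent gene. Higher calls were 3 without shPRMT5 replicate 2 and 5 without shPRMT5 replicate 1, and lower calls were 0 and 2.

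Enzymes that supply NADPH and lipid were among the genes called on both scalings. Of 14 pentose phosphate and NADPH genes 6 were higher (42.9%, against 15.1% over all genes) and none lower, 3 on both scalings. ME1, cytosolic malic enzyme, had 58.4 and 77.2 TPM in shPRMT5 cells, against 26.9 and 31.4 TPM in shGFP cells. Of 50 NRF2 and glutathione genes 15 were higher (30%) and 1 lower (2%, against 3.48% over all genes), 4 and 1 on both scalings. AKR1B10, a reductase of reactive aldehydes, had 279.7 and 237 TPM in shPRMT5 cells, against 52.8 and 90.1 TPM in shGFP cells, and SLC7A11, the cystine carrier, had 11.01 and 15.7 TPM in shPRMT5 cells, against 4.40 and 7.28 TPM in shGFP cells. An antioxidant response element, TGACNNNGC on either strand, stood in 8 of 36 promoters of the NRF2 list (22.2%), against 15.5% of all promoters. It stood in 17.2% of promoters of all genes called higher and in 17.4% of those called lower. Of 21 members of the NRF2 and NADPH lists called higher, 18 had a matched promoter, and 5 held the element before the start. In ME1 and TXNRD1, called higher on both scalings, it read as follows, with the element in capitals.
ME1 (chr6:83431150-83431218): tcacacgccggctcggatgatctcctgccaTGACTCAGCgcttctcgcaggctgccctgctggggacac
TXNRD1 (chr12:104215650-104215718): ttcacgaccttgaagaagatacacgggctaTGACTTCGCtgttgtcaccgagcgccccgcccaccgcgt
The ME1 stretch is on the minus strand of chr6 and the TXNRD1 stretch on the plus strand of chr12. TXNRD1, which reduces thioredoxin and belongs to the NRF2 list, had 345 and 442 TPM in shPRMT5 cells, against 169.9 and 233 TPM in shGFP cells and was chosen for its promoter after its values were seen. Called higher without shPRMT5 replicate 2 were 2 NRF2 genes and no NADPH gene.

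Lists of lipid genes had between 13.5% and 39.3% of members called higher, beside 15.1% over all genes. The lowest of these shares was that of oxidation and peroxisome genes. Of 40 fatty acid and glycerolipid synthesis genes 14 were higher and 1 lower, 5 and 1 on both scalings. ACSL1, which activates long-chain fatty acids, had 46.2 and 55.9 TPM in shPRMT5 cells, against 16.1 and 20.5 TPM in shGFP cells, and LPIN1, which makes diacylglycerol, had 9.02 and 12.8 TPM in shPRMT5 cells, against 4.27 and 3.60 TPM in shGFP cells. MGLL, which breaks down monoacylglycerol, was the one that fell, with 4.14 and 5.42 TPM in shPRMT5 cells, against 11.9 and 9.37 TPM in shGFP cells. CPT1A, the gate of mitochondrial fatty acid oxidation, had 44.6 and 52.002 TPM in shPRMT5 cells, against 20.2 and 17.9 TPM in shGFP cells, one of 7 of 52 oxidation and peroxisome genes that rose and the one called on both scalings. Of 28 cholesterol genes 11 were higher, 3 on both scalings: HMGCS1, an early enzyme of the pathway, had 75.6 and 95.8 TPM in shPRMT5 cells, against 33.2 and 51.5 TPM in shGFP cells. ACSL1 and CPT1A were called whichever library was left out. With shPRMT5 replicate 2 omitted, the fatty acid list had 2 higher calls, and the oxidation and cholesterol lists 1 each.

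Sphingolipid genes moved both ways, with 6 of 27 higher (22.2%) and 2 lower (7.41%), beside 15.1% and 3.48% over all genes. On both scalings 1 was higher and 2 lower. SGPP1, which dephosphorylates sphingosine 1-phosphate, had 35.8 and 47.6 TPM in shPRMT5 cells, against 21.03 and 13.6 TPM in shGFP cells, and SPHK1, which makes it, had 53.1 and 55.5 TPM in shPRMT5 cells, against 98.4 and 77.7 TPM in shGFP cells. ORMDL3, a brake on serine palmitoyltransferase, had 35.01 and 39.05 TPM in shPRMT5 cells, against 67.4 and 54.6 TPM in shGFP cells. The kinase and the phosphatase of one lipid signal therefore changed in opposite directions on both scalings. Neither fall was called without 1 of the shPRMT5 libraries.

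Of 34 genes of serine, one-carbon, methionine and polyamine metabolism 9 were higher and 3 lower, 1 and 3 on both scalings. The 3 that fell take part in methionine salvage and polyamines. ADI1, of the salvage cycle, had 5.43 and 5.66 TPM in shPRMT5 cells, against 12.7 and 14.5 TPM in shGFP cells, SAT1, which acetylates polyamines, had 259 and 229 TPM in shPRMT5 cells, against 324 and 458 TPM in shGFP cells, and SRM, spermidine synthase, had 275 and 277 TPM in shPRMT5 cells, against 388 and 375 TPM in shGFP cells. MTAP, the salvage enzyme whose substrate inhibits PRMT5, had 4.004 and 5.29 TPM in shPRMT5 cells, against 1.46 and 2.50 TPM in shGFP cells and rose on the deposited scale only. With each library left out between 1 and 4 genes of the list were called lower, and without shPRMT5 replicate 2 none higher.

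Zinc and iron handling had 7 of 18 genes higher and none lower, 2 on both scalings. SLC30A1, the zinc exporter of the cell membrane, had 12.7 and 13.97 TPM in shPRMT5 cells, against 6.27 and 5.44 TPM in shGFP cells, and SLC39A14, an importer of zinc and iron, had 50.4 and 64.4 TPM in shPRMT5 cells, against 31.8 and 28.6 TPM in shGFP cells. Without shPRMT5 replicate 2 none was called. Of 130 cell membrane solute carriers 26 were higher (20%) and 5 lower (3.85%), beside 15.1% and 3.48% over all genes. On both scalings 5 were higher and 5 lower. SLC7A7, a carrier of basic amino acids, had 3.90 and 5.68 TPM in shPRMT5 cells, against 1.14 and 0.742 TPM in shGFP cells, and SLC7A8, of neutral ones, had 3.29 and 2.86 TPM in shPRMT5 cells, against 7.80 and 7.86 TPM in shGFP cells. SLC29A4, a monoamine carrier, had 6.12 and 4.68 TPM in shPRMT5 cells, against 18.004 and 16.998 TPM in shGFP cells, a log2 fold of -1.54 ± 0.24. Amino acid carriers are thus found among both the higher and the lower genes. There were 12 higher calls without shPRMT5 replicate 1 and 1 without shPRMT5 replicate 2, and 2 lower calls without either.

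Keratins were called in both directions. Of 19 tested 2 were higher (10.5%) and 3 lower (15.8%), beside 15.1% and 3.48% over all genes. On both scalings 1 was higher and 3 lower, and the list's median log2 fold was -0.23. KRT13, a keratin of suprabasal oral epithelium, had 677 and 594 TPM in shPRMT5 cells, against 1191 and 1026 TPM in shGFP cells, and KRT7, of simple epithelia, had 294 and 269 TPM in shPRMT5 cells, against 585 and 454 TPM in shGFP cells. KRT81, a hair keratin, had 1.92 and 3.83 TPM in shPRMT5 cells, against 14.8 and 9.52 TPM in shGFP cells. These 3 were lower in each shPRMT5 library, in contrast to KRT5 above, and all were called whichever library was left out. KRT80 had 258 and 254 TPM in shPRMT5 cells, against 203 and 158 TPM in shGFP cells and rose on the deposited scale only. The pseudogenes KRT16P5 and KRT16P2, whose reads may come from KRT16 or its copies, had 2.68 and 2.33 TPM in shPRMT5 cells, against 11.3 and 9.12 TPM in shGFP cells, and 0.211 and 0.427 TPM in shPRMT5 cells, against 3.65 and 2.46 TPM in shGFP cells.

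Clade B serpins, intracellular and secreted protease inhibitors of squamous cells, had 5 of 9 genes lower (55.6%) and 2 higher (22.2%). Over all genes 3.48% were lower and 15.1% higher. On both scalings 5 serpins were lower and none higher. SERPINB4, a close copy of SERPINB3 with which it may share reads, had 1.68 and 1.80 TPM in shPRMT5 cells, against 8.09 and 12.2 TPM in shGFP cells, and SERPINB2, the inhibitor of urokinase, had 25.3 and 29.1 TPM in shPRMT5 cells, against 51.4 and 62.4 TPM in shGFP cells. SERPINB5, maspin, had 77.7 and 81.98 TPM in shPRMT5 cells, against 36.6 and 58.5 TPM in shGFP cells. Of 24 matrix protease and plasminogen genes 5 were higher and 5 lower (20.8% each), 1 and 5 on both scalings. MMP1, an interstitial collagenase, had 5.85 and 5.40 TPM in shPRMT5 cells, against 18.04 and 28.1 TPM in shGFP cells, and MMP13, another collagenase, had 105 and 99.6 TPM in shPRMT5 cells, against 25.9 and 39.9 TPM in shGFP cells. MMP2, a gelatinase, had 15.7 and 16.8 TPM in shPRMT5 cells, against 36.03 and 26.2 TPM in shGFP cells. PLAU, urokinase, had 59.5 and 53.8 TPM in shPRMT5 cells, against 31.3 and 31.4 TPM in shGFP cells and was called on the deposited scale only. Without shPRMT5 replicate 1, or without replicate 2, 3 serpins and 1 gene of the protease list were called lower.

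Adhesion genes were called in both directions. Of 22 hemidesmosome, laminin and integrin genes 6 were higher (27.3%) and 4 lower (18.2%), beside 15.1% and 3.48% over all genes. On both scalings 2 were higher and 4 lower. ITGA5, the fibronectin receptor chain, had 34.97 and 36.3 TPM in shPRMT5 cells, against 76.6 and 50.4 TPM in shGFP cells, and the tetraspanin CD151 had 312 and 310.3 TPM in shPRMT5 cells, against 523 and 452 TPM in shGFP cells. FERMT1, kindlin of epithelia, had 10.2 and 12.8 TPM in shPRMT5 cells, against 4.95 and 3.44 TPM in shGFP cells, and LAMB1, a laminin chain, had 15.5 and 20.9 TPM in shPRMT5 cells, against 9.39 and 7.40 TPM in shGFP cells. Called lower were 0 without either shPRMT5 library, and called higher 0 without replicate 2. Of 11 desmosome genes 2 rose (18.2%, against 15.1% over all genes), both on both scalings: PERP, a membrane protein of desmosomes, had 345 and 408 TPM in shPRMT5 cells, against 185 and 204 TPM in shGFP cells, and DSP, desmoplakin, had 22.98 and 38.97 TPM in shPRMT5 cells, against 13.9 and 10.7 TPM in shGFP cells. Neither was called without shPRMT5 replicate 2. Of 26 tight and adherens junction genes 5 rose (19.2%), 1 on both scalings, and CLDN1, the claudin of the squamous barrier, had 11.4 and 11.02 TPM in shPRMT5 cells, against 4.73 and 4.34 TPM in shGFP cells and was called whichever library was left out. ZNF750, a factor of keratinocyte differentiation, rose at low level, with 1.87 and 3.05 TPM in shPRMT5 cells, against 0.365 and 0.246 TPM in shGFP cells. S100A4, a calcium-binding protein of motile cells, had 502 and 439 TPM in shPRMT5 cells, against 160.1 and 151 TPM in shGFP cells, against the fall of S100A2, and both were called whichever library was left out.

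Of 33 collagen and mesenchymal genes 5 were higher (15.2%) and 1 lower (3.03%), close to the shares over all genes, 15.1% and 3.48%. On both scalings 4 were higher and 1 lower. The list's median log2 fold was 0.21, against 0.25 over all genes. COL5A1 had 21.4 and 22.7 TPM in shPRMT5 cells, against 10.1 and 8.13 TPM in shGFP cells, COL16A1 had 25.5 and 29.9 TPM in shPRMT5 cells, against 14.02 and 10.5 TPM in shGFP cells and COL4A5 had 6.51 and 7.30 TPM in shPRMT5 cells, against 3.37 and 1.71 TPM in shGFP cells. LOXL4, a lysyl oxidase, had 144 and 124 TPM in shPRMT5 cells, against 259.6 and 206 TPM in shGFP cells. The collagens named stood below 15 TPM in shGFP cells and rose, and the lysyl oxidase fell. Once shPRMT5 replicate 2 was left out, the list had 2 higher calls and no lower one.

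**Figure D5:**
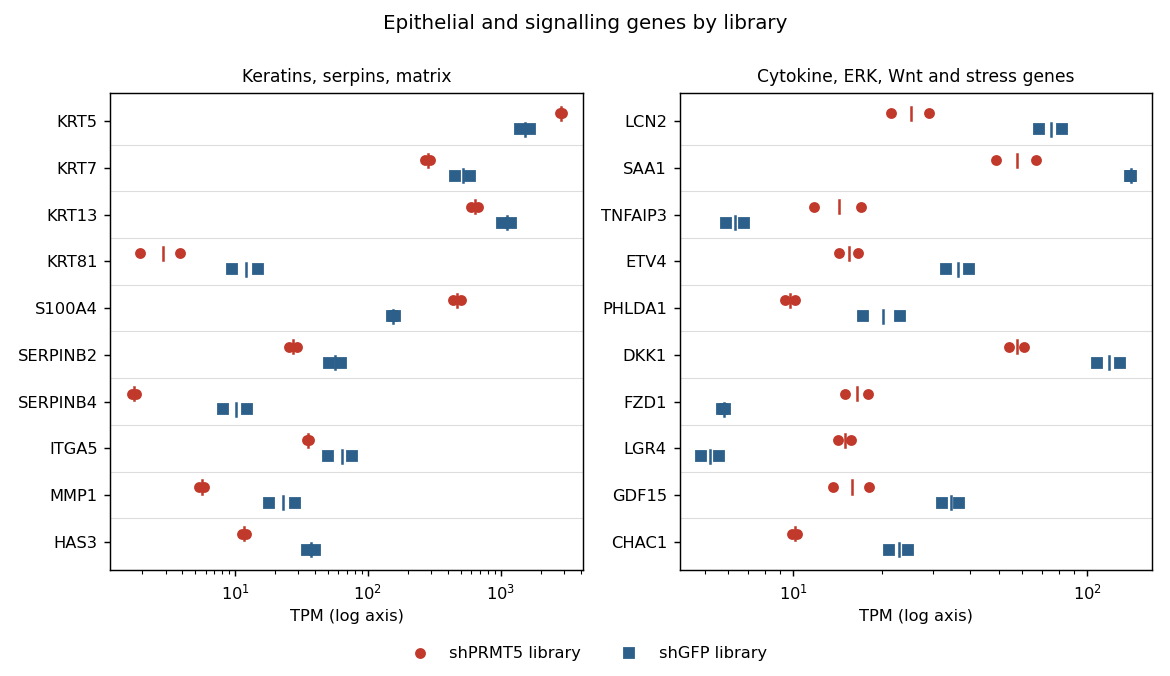
TPM (log axis) of epithelial and matrix genes (left) and of cytokine, ERK, Wnt and stress genes (right). Circles are shPRMT5 libraries, squares shGFP libraries and short bars group means. KRT5, S100A4, TNFAIP3, FZD1 and LGR4 are higher in shPRMT5 libraries and the other 15 genes lower, with no overlap of groups.

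In the NF-kB list more genes were called lower than higher, and most were not called. Of 29 NF-kB response and cytokine genes 3 were higher (10.3%) and 7 lower (24.1%), beside 15.1% and 3.48% over all genes. On both scalings 2 were higher and 7 lower, and the list's median log2 fold was -0.01, against 0.25 over all genes. LCN2, a siderophore-binding acute phase protein, had 28.9 and 21.5 TPM in shPRMT5 cells, against 68.5 and 82.04 TPM in shGFP cells, and SAA1, serum amyloid A, had 49.1 and 66.7 TPM in shPRMT5 cells, against 140.0 and 141 TPM in shGFP cells. TNFAIP3, the deubiquitinase that ends NF-kB signals, had 11.8 and 16.9 TPM in shPRMT5 cells, against 5.91 and 6.81 TPM in shGFP cells, and NFKB1, the gene of a subunit, had 20.1 and 23.2 TPM in shPRMT5 cells, against 10.99 and 10.6 TPM in shGFP cells. NFKBIA, the inhibitor that holds NF-kB in the cytoplasm, had 375 and 356 TPM in shPRMT5 cells, against 270.3 and 252 TPM in shGFP cells and rose on the deposited scale only. The number of lower genes was 5 without either shPRMT5 library, and the number of higher genes was 0 without shPRMT5 replicate 2. An NF-kB site, GGGNNTTCC on either strand, stood in 6 of 23 promoters of the list, 26.1%, against 8.32% of all. The site stood in 8.34% of promoters of all genes called higher and in 9.47% of those called lower. Of the list's genes with a matched promoter, 1 of 3 called higher and 1 of 5 called lower held it before the start. Both are shown with the site in capitals.
TNFAIP3 (chr6:137867174-137867242): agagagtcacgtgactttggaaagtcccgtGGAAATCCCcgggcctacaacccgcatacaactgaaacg
TNFAIP2 (chr14:103123334-103123402): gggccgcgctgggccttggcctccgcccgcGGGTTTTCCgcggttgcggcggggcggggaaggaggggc
Both stretches are on the plus strand, of chr6 and chr14. TNFAIP2, named for its promoter after its values were seen, had 315 and 292 TPM in shPRMT5 cells, against 656 and 492 TPM in shGFP cells. A match to the same pattern thus stood before a gene that rose and before one that fell.

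Readouts of ERK signalling were mixed. Of 23 feedback and immediate early genes 4 were higher and 4 lower (17.4% each), beside 15.1% and 3.48% over all genes. On both scalings 2 were higher and 4 lower. ETV4, a transcription factor induced by ERK, had 14.3 and 16.6 TPM in shPRMT5 cells, against 39.7 and 33.2 TPM in shGFP cells, PHLDA1 had 9.38 and 10.1 TPM in shPRMT5 cells, against 23.1 and 17.3 TPM in shGFP cells and FOSL1, an AP-1 subunit, had 18.5 and 26.1 TPM in shPRMT5 cells, against 48.5 and 32.8 TPM in shGFP cells. DUSP2, a phosphatase of ERK, had 57.9 and 58.4 TPM in shPRMT5 cells, against 35.4 and 24.98 TPM in shGFP cells, and KLF6 had 6.57 and 8.63 TPM in shPRMT5 cells, against 3.42 and 2.83 TPM in shGFP cells. ETV4 was called whichever library was left out, and the list had 1 lower call without either shPRMT5 library. An AP-1 site, TGANTCA on either strand, stood in 7.58% of promoters of genes called lower, against 4.50% of all promoters and 4.92% of those called higher. Of 14 EGF receptor and ligand genes 3 rose, and LRIG3 had 10.1 and 13.9 TPM in shPRMT5 cells, against 4.81 and 5.57 TPM in shGFP cells and was the one called on both scalings, with none called without shPRMT5 replicate 2.

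In the TGF-beta and BMP list 7 of 35 genes were higher (20%) and 1 lower (2.86%), 5 and 1 on both scalings. Over all genes 15.1% were higher and 3.48% lower. ID2, an inhibitor of bHLH factors and a BMP target, had 42.9 and 42.6 TPM in shPRMT5 cells, against 14.7 and 16.2 TPM in shGFP cells, and INHBB, an activin subunit, had 2.84 and 3.95 TPM in shPRMT5 cells, against 0.675 and 0.909 TPM in shGFP cells. Of 38 Wnt genes 6 were higher (15.8%) and 1 lower (2.63%), close to the shares over all genes. On both scalings 2 were higher and 1 lower. The receptor FZD1 had 15.04 and 17.99 TPM in shPRMT5 cells, against 5.74 and 5.86 TPM in shGFP cells and LGR4, the receptor of R-spondins, had 14.2 and 15.8 TPM in shPRMT5 cells, against 5.59 and 4.86 TPM in shGFP cells. DKK1, a secreted antagonist, had 54.3 and 61.1 TPM in shPRMT5 cells, against 108 and 129.8 TPM in shGFP cells. NOTUM, an antagonist that removes the lipid of Wnt proteins, had 8.32 and 8.03 TPM in shPRMT5 cells, against 3.56 and 3.87 TPM in shGFP cells and rose on the deposited scale only. The antagonists named thus changed in both directions. The calls of FZD1, LGR4 and DKK1 held whichever library was left out. With shPRMT5 replicate 2 omitted, each list had 2 genes called higher.

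Of 45 interferon-stimulated genes 10 were higher (22.2%) and 1 lower (2.22%), beside 15.1% and 3.48% over all genes. On both scalings 4 were higher and 1 lower. OAS3, a sensor of viral RNA, had 53.7 and 59.4 TPM in shPRMT5 cells, against 29.04 and 24.5 TPM in shGFP cells, IFI44 had 22.5 and 28.5 TPM in shPRMT5 cells, against 8.81 and 13.2 TPM in shGFP cells and HERC6 had 4.66 and 3.66 TPM in shPRMT5 cells, against 0.874 and 1.18 TPM in shGFP cells. IFITM1, a membrane protein that blocks viral entry, had 111 and 103 TPM in shPRMT5 cells, against 172 and 180.0 TPM in shGFP cells. Leaving out shPRMT5 replicate 1 gave 7 higher calls, and leaving out shPRMT5 replicate 2 gave 1.

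Of 36 BCL2 family and apoptosis genes 7 were higher (19.4%) and 1 lower (2.78%), beside 15.1% and 3.48% over all genes. On both scalings 3 were higher and 1 lower. APAF1, the core of the apoptosome, had 6.08 and 8.60 TPM in shPRMT5 cells, against 2.45 and 1.66 TPM in shGFP cells, and BMF, a BH3-only protein, had 16.1 and 14.7 TPM in shPRMT5 cells, against 6.30 and 5.35 TPM in shGFP cells. BIK, another BH3-only protein, had 164 and 116 TPM in shPRMT5 cells, against 236 and 206 TPM in shGFP cells. APAF1 and BMF rose whichever library was left out, and 2 genes were called higher without shPRMT5 replicate 2. Of 35 p53 response genes 5 were higher (14.3%) and 2 lower (5.71%), 2 and 2 on both scalings. MDM2, the ligase that destroys p53, had 3.58 and 4.32 TPM in shPRMT5 cells, against 1.57 and 1.31 TPM in shGFP cells, and TP53I3 had 41.7 and 33.5 TPM in shPRMT5 cells, against 17.9 and 21.01 TPM in shGFP cells. No p53 response gene was called in either direction without shPRMT5 replicate 2.

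Motor proteins of the microtubules were called higher in part, 25.5% of them beside 15.1% over all genes. Of 51 kinesin and dynein genes 13 were higher and none lower, 5 on both scalings, with DYNC1H1, the dynein heavy chain, at 14.9 and 17.4 TPM in shPRMT5 cells, against 8.38 and 6.60 TPM in shGFP cells, and BICD2, its cargo adaptor, at 38.5 and 48.03 TPM in shPRMT5 cells, against 23.3 and 17.9 TPM in shGFP cells. Without shPRMT5 replicate 2 the list had 1 call.

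Below the 8 largest changes in each direction, the called genes of rank 9 to 20 by log2 fold were an assortment of metabolic, secreted and tissue-specific genes. ZFP42, a factor best known from stem cells, had 26.3 and 22.8 TPM in shPRMT5 cells, against 5.76 and 5.82 TPM in shGFP cells, TNNC1, a troponin of slow muscle, had 69.3 and 68.9 TPM in shPRMT5 cells, against 17.002 and 20.2 TPM in shGFP cells and GPER1, a membrane receptor for oestrogen, had 33.8 and 36.1 TPM in shPRMT5 cells, against 8.98 and 10.05 TPM in shGFP cells. ALPPL2, an alkaline phosphatase of germ cells, had 49.8 and 42.2 TPM in shPRMT5 cells, against 16.6 and 10.8 TPM in shGFP cells. PEG10, an imprinted gene of retroviral origin, had 14.8 and 19.6 TPM in shPRMT5 cells, against 4.66 and 3.43 TPM in shGFP cells. The secreted phospholipase PLA2G3 and the mucin MUC13 stood below 1 TPM in shGFP cells and rose, with 4.85 and 4.87 TPM in shPRMT5 cells, against 0.860 and 0.448 TPM in shGFP cells, and 3.63 and 3.13 TPM in shPRMT5 cells, against 0.0824 and 0.278 TPM in shGFP cells. U2AF1L5, a copy of the splicing factor gene U2AF1, had 33.2 and 221 TPM in shPRMT5 cells, against 24.3 and 24.3 TPM in shGFP cells, so that its call rests on shPRMT5 replicate 2. Reads of the copies cannot be told apart with certainty.

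On the lower side, IGFBP7, a secreted binder of growth factors, had 36.7 and 34.3 TPM in shPRMT5 cells, against 132 and 108 TPM in shGFP cells, HAS3, a hyaluronan synthase, had 11.4 and 12.1 TPM in shPRMT5 cells, against 39.7 and 34.6 TPM in shGFP cells and SEMA6B, a membrane semaphorin, had 9.25 and 12.9 TPM in shPRMT5 cells, against 43.99 and 36.5 TPM in shGFP cells. All 3 fell whichever library was left out. SERTAD4-AS1, an antisense RNA, had 3.76 and 1.95 TPM in shPRMT5 cells, against 10.6 and 10.5 TPM in shGFP cells, and whether counting used strand is not given in the sources. SNORD46, a small nucleolar RNA inside a ribosomal protein gene, had 0.963 and 4.87 TPM in shPRMT5 cells, against 11.1 and 9.34 TPM in shGFP cells, and RPL13AP20, a pseudogene, had 2.79 and 2.49 TPM in shPRMT5 cells, against 11.4 and 15.2 TPM in shGFP cells. Small and duplicated genes such as these share reads with their hosts or parents.

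Some genes of the vector libraries in the other RNA-seq table stood far lower in the shGFP libraries or were not listed for them. Of 7783 genes at a mean of at least 10 TPM in those vector libraries, 322 were at less than 1 in 8 of that level in the shGFP libraries or not listed, and 86 of them lie on chromosome 6. Not listed were 131 of the 322, of which 16 are mitochondrially encoded. No mitochondrially encoded gene was listed for the shPRMT5 and shGFP libraries, so their fixed TPM total holds none. Of the genes named above DSP, EEF1D and MMP13 were among the 322. Genes of the HLA region are not described here for that reason.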

How the data were processed

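The authors deposited TPM values for the 2 shPRMT5 and 2 shGFP libraries in 1 table, and the sample titles gave the groups. The submitters' processing notes list Bowtie, featureCounts, FastQC, DESeq2 1.24.0, GRCh37 and hg19 without saying what each was used for, and do not say how TPM was computed. Each column sums to 1000000 and holds no value of 0. TPM keeps no read depth, so the depth is unknown and no counting interval is given. Blank rows (2) were left out, and 9 symbols that a spreadsheet had made dates were restored from the gene ID.

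Genes with a mean of at least 1 TPM were fitted on log2(TPM + 1) by limma 3.58.1 (R 4.3.3), with two-sided moderated tests and an intensity trend, and p-values were adjusted by Benjamini-Hochberg over all 12635 genes. A gene was called at an adjusted p under 0.05. The pseudocount shrinks the folds of low genes. In data simulated from this table, 100 genes were changed by 1 log2 unit and 100 by 2, among 12635 genes. The fit found 73% of the former and 100% of the latter, and called 11 unchanged genes. The simulated libraries held no shift of all genes, no gradient by gene span and no library apart from the rest. The 11 calls are therefore no measure of false calls among the real ones.

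The genes and the 80 lists were chosen with earlier results of these data known, and no list was tested as a set. Named were PRMT5, the 10 called genes per direction with the largest change of mean TPM, those ranked 9 to 20 by log2 fold, and up to 3 called members per direction of a list (in lists without a call, the 2 of lowest p), passing over clone names and genes whose groups overlap. Complexes of up to 8 members could be completed. A few genes and 1 list are left out of the text. Spans, biotypes and promoters came from NCBI RefSeq tables of GRCh38.p14, matched by symbol. Alternatives were another pseudocount, filters, scalings, no trend, a replicate block, each library left out, leaving out genes depleted in the table and their neighbours, a fold threshold and centring by span. Python 3.11.15, pandas 2.3.3, NumPy 2.4.6 and Matplotlib 3.10.9 were used.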

Additional observations from a re-analysis of the deposited data

How the results depend on the processing

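The counts of called genes moved with the processing. Against 1904 higher and 440 lower, median-of-ratios rescaling gave 480 and 886, quantile normalization 400 and 565, no filter on low values 756 and 237, no intensity trend 950 and 203, and a log2 fold of at least 1 in size 408 and 129. Centring by gene span, added after seeing the data, gave 267 higher and 562 lower. With each library left out in turn, higher genes ranged between 170 and 2385 and lower genes between 154 and 716. A pseudocount of 0.1 gave 1841 and 426, a minimum mean of 5 TPM 1937 and 428, and leaving out genes depleted in the table and their neighbours 1919 and 448 of 12277 tested. The cause of these moves was not tested.

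Replicate numbers are shared by the groups but nothing ties the libraries, and deviations of same-numbered libraries correlated at 0.09 over 12635 genes. With the replicate number as a block, 2856 genes were higher and 630 lower.

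PRMT5 was called lower under every alternative run. Signs turned only for genes that were not called. The CARM1 log2 fold was -0.11 after median-of-ratios rescaling, between -0.037 (without shGFP replicate 2) and 0.37 with a library left out and -0.22 centred by gene span, and the CLNS1A log2 fold was -0.014 after rescaling, between -0.013 (without shGFP replicate 1) and 0.53 with a library left out and -0.014 centred by span. The PRMT7 log2 fold was -0.21 after rescaling, -0.16 with quantile normalization, between -0.18 (without shGFP replicate 2) and 0.30 with a library left out and -0.33 centred by span. The PRMT9 log2 fold was between -0.15 (without shGFP replicate 1) and 0.84 with a library left out and -0.047 centred by span, where the PRMT3 log2 fold was -0.15. Centring by coding length was not run, as protein sequences were not used here. With 2 libraries a group and no read depth, differences of small size could not be told from the spread between libraries.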

Other observations

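Long noncoding RNAs had a smaller share of higher calls than coding genes, a difference that was not tested. Of 647 long noncoding RNAs tested, 30 were called higher (4.64%) and 41 lower (6.34%), against 16.3% higher and 2.86% lower of the 10784 protein-coding genes, with biotypes taken from the RefSeq gene table. Of 30 miRNA genes 5 were higher (16.7%) and 4 lower (13.3%). Of 34 named long noncoding RNAs 1 was higher and 5 lower, the 5 on both scalings. GAS5, a host of small nucleolar RNAs, had 173 and 176 TPM in shPRMT5 cells, against 247 and 311 TPM in shGFP cells, and SNHG16, another such host, had 12.7 and 14.5 TPM in shPRMT5 cells, against 24.995 and 28.7 TPM in shGFP cells. OIP5-AS1, also known as Cyrano, had 8.60 and 11.2 TPM in shPRMT5 cells, against 5.45 and 5.76 TPM in shGFP cells, and whether counting used strand is not given in the sources. Named long noncoding RNAs had a median span of 6.22 kb, and no gene of the list was called without either shPRMT5 library. ZNF367, a zinc finger gene, had 14.6 and 21.5 TPM in shPRMT5 cells, against 7.37 and 6.56 TPM in shGFP cells. Of 222 ZNF genes, mostly repressors of transcription, 19 were higher (8.56%, against 15.1% over all genes) and none lower, 4 on both scalings. None was called without shPRMT5 replicate 2.

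Further lists had at most 5 genes called higher, beside 15.1% higher and 3.48% lower over all genes. Of 63 lysosome and V-ATPase genes 3 were higher (4.76%) and none lower, 2 on both scalings, and ATP6V1A, the catalytic subunit of the proton pump, had 40.4 and 49.6 TPM in shPRMT5 cells, against 15.6 and 24.3 TPM in shGFP cells. Of 49 RAB GTPases 4 rose, none on both scalings, and of 33 autophagy genes 5 rose (15.2%), none on both scalings. Of 23 glycolysis and lactate genes 3 rose, none on both scalings, and ALDOC, an aldolase, fell on both, with 189.6 and 173 TPM in shPRMT5 cells, against 291 and 256 TPM in shGFP cells. Of 31 hypoxia genes 2 rose, neither on both scalings, and ANGPTL4, a secreted inhibitor of lipoprotein lipase, fell on both, with 0.607 and 0.859 TPM in shPRMT5 cells, against 3.03 and 2.47 TPM in shGFP cells. Of 23 Notch genes 2 were higher and 2 lower (8.70% each), none and 2 on both scalings, and HES4, a target and the most abundant of the 4, had 712 and 662 TPM in shPRMT5 cells, against 1051 and 914 TPM in shGFP cells. Of 29 YAP and TEAD target genes 3 were higher and 2 lower, 1 and 2 on both scalings, and MYOF, a membrane repair protein, had 83.9 and 114 TPM in shPRMT5 cells, against 52.9 and 52.7 TPM in shGFP cells. In these 7 lists 1 gene was called higher and 1 lower without shPRMT5 replicate 2.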
